A study of Mus musculus with 8 samples.

Results

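Neurons read chemical signals through receptor proteins built from subunits, and the genes for those subunits are described here across 4 mouse organs. The members were all genes whose symbol names a subunit of an ionotropic glutamate receptor (AMPA, delta, kainate or NMDA type), a metabotropic glutamate receptor, a GABA-A receptor, a nicotinic acetylcholine receptor or a glycine receptor. They numbered 66 of the 27179 genes in the table and were chosen by name, not by level. Glutamate receptors numbered 26, with 4 AMPA, 2 delta, 5 kainate, 7 NMDA and 8 metabotropic genes, and there were 19 GABA-A, 16 nicotinic and 5 glycine receptor genes.

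Total RNA came from mouse brain, heart, kidney and liver. Each organ was either flash frozen or kept as a paraffin block after fixation in 10% formalin (FFPE), and each of the 8 combinations gave 1 library. FFPE tissue was deparaffinised first, and all RNA was taken up with Trizol and sheared in a PIXUL sonicator. The sources used here do not give strain, age, sex, the piece of organ taken or the number of animals, so the p-values measure only the spread between these libraries, which may be technical.

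Glutamate is the main excitatory transmitter of the brain. AMPA, kainate and NMDA receptors are cation channels, and metabotropic receptors signal through G proteins. GABA-A and glycine receptors are chloride channels and inhibit, and nicotinic receptors are cation channels opened by acetylcholine, at the nerve-muscle junction as well as in the brain. Which subunits a cell makes sets where the receptor sits and how it responds, and subunit use differs between brain regions. Gabra6, for example, is a marker of cerebellar granule cells.

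Levels are given as CPM, reads per 1000000 of the library's scaled size, and as reads where they are few. The libraries held 10180972 to 20526813 reads, so that 3 reads stood for 0.119 to 0.292 CPM, and this level served as the floor where a gene had no read. The organ labels matched marker genes. The summed level of 10 pan-neuronal markers was 1659 and 1929 CPM in frozen and FFPE brain and 6.50 to 19.4 CPM in the other libraries. Summed cardiac muscle markers (6 genes) reached 27664 and 24575 CPM in heart, kidney tubule markers (7 genes) 11844 and 8158 CPM in kidney, and hepatocyte markers (6 genes) 51420 and 43753 CPM in liver. In such bulk samples, fewer cells of a type and less RNA per cell cannot be told apart.

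The promoter windows of 4 members are printed because the results below turn on these genes and because the windows contrast in sequence. Gabra6 and the pair Gabre and Gabrq differed most, in opposite directions, between the 2 brain libraries, and Chrna4 was above its brain level in kidney. Sequences are from RefSeq on GRCm38.p6, 5′ to 3′ on the gene's strand, 250 bases before to 50 after the start of transcription, with every CG dinucleotide in capitals. The Gabra6 window (chr11:42321023-42321322, minus strand) held 2 CG dinucleotides.
Gabra6: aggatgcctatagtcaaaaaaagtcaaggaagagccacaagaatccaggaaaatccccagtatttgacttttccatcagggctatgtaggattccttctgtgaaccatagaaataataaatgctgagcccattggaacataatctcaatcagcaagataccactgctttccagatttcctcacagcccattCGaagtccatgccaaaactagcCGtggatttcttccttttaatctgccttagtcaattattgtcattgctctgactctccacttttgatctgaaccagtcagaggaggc
The Gabre window (chrX:72274672-72274971, minus strand) held 24 and the Gabrq window (chrX:72824928-72825227, plus strand) 23.
Gabre: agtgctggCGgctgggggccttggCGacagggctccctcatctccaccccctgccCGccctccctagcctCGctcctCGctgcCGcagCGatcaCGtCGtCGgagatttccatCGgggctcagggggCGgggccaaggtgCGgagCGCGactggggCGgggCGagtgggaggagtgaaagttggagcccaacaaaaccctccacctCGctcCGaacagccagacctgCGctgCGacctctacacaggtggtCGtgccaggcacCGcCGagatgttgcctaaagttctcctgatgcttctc
Gabrq: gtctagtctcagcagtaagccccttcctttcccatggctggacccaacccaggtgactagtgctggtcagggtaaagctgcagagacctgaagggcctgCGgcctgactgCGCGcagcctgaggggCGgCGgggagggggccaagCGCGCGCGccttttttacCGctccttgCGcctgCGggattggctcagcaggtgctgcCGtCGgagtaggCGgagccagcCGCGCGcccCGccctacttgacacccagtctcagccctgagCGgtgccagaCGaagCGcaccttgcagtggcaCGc
The Chrna4 window (chr2:181039128-181039427, minus strand) held 33. It lies inside the Chrna4 gene of GENCODE M21 (chr2:181018380-181043546), so its RefSeq start is not the outermost GENCODE start.
Chrna4: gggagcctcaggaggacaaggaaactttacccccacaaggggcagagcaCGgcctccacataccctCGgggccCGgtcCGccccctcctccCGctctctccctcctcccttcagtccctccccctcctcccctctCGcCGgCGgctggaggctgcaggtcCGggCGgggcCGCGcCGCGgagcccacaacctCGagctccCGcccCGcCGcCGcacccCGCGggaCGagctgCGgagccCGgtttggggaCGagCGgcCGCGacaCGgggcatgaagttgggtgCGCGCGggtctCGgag
Of the 66 members 46 matched a window, with 54 windows in all, and their median was 11 CG dinucleotides, beside 7 over all 32851 windows. As many CG dinucleotides as in Gabra6 were found in 85.9% of all windows, and as many as in Chrna4 in 8.56%. The letters TATAAA, searched on both strands, were in 6 member windows and in 13.6% of all windows.

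Receptor subunit mRNA was measured mainly in brain. The summed level of the 66 genes was 2544 CPM in frozen and 2835 CPM in FFPE brain, beside 42.8 and 62.4 CPM in heart, 73.1 and 79.4 CPM in kidney and 20.1 and 31.9 CPM in liver. The highest library was a brain library for 57 members, and for 48 both brain libraries were above all 6 others. A model across all genes (limma, adjusted p by Benjamini-Hochberg, called under 0.05) was fitted to genes above 1 CPM in at least 2 libraries, and 47 members passed that filter. Of these, 43 were called higher in brain than the mean of the other 3 organs, beside 34.7% of all genes fitted, and 0 were called lower, beside 31.6%. Since 22 of the 47 passed the filter through the brain libraries only, that count is a description. With no filter, 50 of all 66 were called higher and 0 lower, beside 22.9% and 18.8% of all genes (limma). The median difference of all 66 was 6.43 on the log2 scale with 0.5 reads added, and that of all genes was -0.18. Without frozen brain 22 of the 25 members still above the filter were called, and without FFPE brain 21 of 24 (limma).

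**Figure D1:**
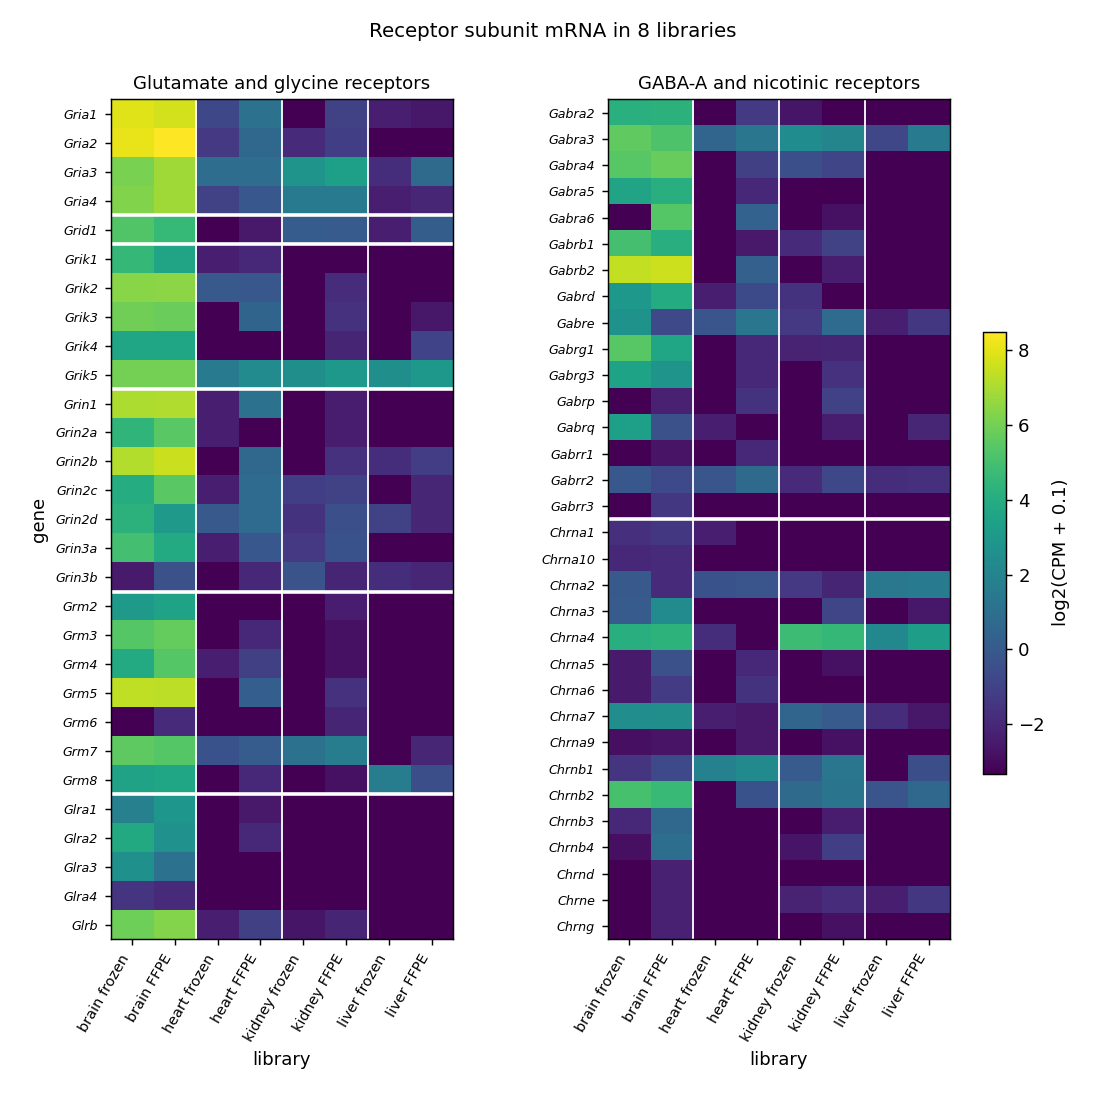
Levels of receptor subunit genes in the 8 libraries, as log2(CPM + 0.1) in colour, with genes in rows by receptor family (white lines) and libraries in columns. The brain columns are bright for most glutamate, GABA-A and glycine receptor genes, Gabra6 is dark in frozen and green in FFPE brain, and Chrna4 in kidney is bright outside the brain.

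AMPA receptors, which carry fast excitation, had 4 subunit genes and all 4 were called higher in brain. Gria2, the subunit whose edited form blocks calcium entry, was at 279 and 370 CPM in frozen and FFPE brain. In the same order it was at 0.292 and 1.44 CPM in heart, 0.176 and 0.363 in kidney and 0 in both liver libraries. The groups did not overlap, and the brain difference was 10.64 ± 0.54 (log2, SE; limma adjusted p = 1.49e-06), the largest among AMPA subunits. Gria3 had the smallest, 5.41 ± 0.47 (limma adjusted p = 1.8e-05), with 70.2 and 113 CPM in brain, 6.79 and 10.0 in kidney, 1.75 and 1.74 in heart and 0.192 and 1.58 in liver. Gria1 (243 and 205 CPM in brain) and Gria4 (75.5 and 113) lay between them. Of the AMPA reads in frozen brain 36.4% (95% Wilson interval 35.7 to 37.1) were from Gria1 and 41.8% (41.0 to 42.5) from Gria2. In FFPE brain these shares were 25.6% (24.9 to 26.3) and 46.2% (45.4 to 47.0). Divided by exon length, Gria1 led in both libraries, with 52.1% and 39.0% of the AMPA level per kb. These intervals cover counting error only, since the reads carry no molecular identifiers and several may stem from 1 molecule.

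Delta receptors bind no glutamate in their known role and link synapses through cerebellins. Grid1 was at 38.7 and 23.7 CPM in brain, 0 and 0.0758 in heart, 0.995 and 0.952 in kidney and 0.096 and 1.03 in liver. Its brain difference was 6.62 ± 0.69 (limma adjusted p = 4.78e-05).

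All 5 kainate receptor genes were called higher in brain. Grik2, a pore-forming subunit, stood at 85.5 and 85.7 CPM in brain, 0.877 and 0.834 in heart, 0 and 0.181 in kidney and 0 in liver, and differed by 9.24 ± 0.69 (limma adjusted p = 8.29e-06). Grik5, which needs a pore-forming partner, was the kainate subunit measured most evenly over organs. It was at 64.6 and 66.2 CPM in brain, 2.92 and 5.16 in heart, 5.91 and 7.70 in kidney and 5.86 and 7.92 in liver. All 6 libraries outside the brain held 30 or more reads of it, and its brain difference was 3.53 ± 0.20 (limma adjusted p = 2.26e-06). Grik1, Grik3 and Grik4 had 215 to 1536 reads in each brain library and 17 or fewer elsewhere.

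NMDA receptors combine the obligatory Grin1 with GluN2 subunits (Grin2a to Grin2d) or GluN3 subunits (Grin3a, Grin3b). Grin1 was at 131 and 136 CPM in brain, 0.0975 and 2.05 in heart, 0 and 0.0906 in kidney and 0 in both liver libraries. Its difference, 10.26 ± 0.82 (limma adjusted p = 1.15e-05), was the largest of the 6 fitted NMDA genes, all of which were called higher, and its exons overlap an antisense gene, Grin1os. Grin2d had the smallest, 4.60 ± 0.62 (limma adjusted p = 0.000223), with 19.4 and 8.26 CPM in brain, 0.877 and 1.67 in heart, 0.234 and 0.634 in kidney and 0.384 and 0.138 in liver. Grin3b did not pass the filter. Its reads numbered 2 and 12 in brain, 0 and 2 in heart, 12 and 3 in kidney and 2 and 2 in liver, so its highest library was frozen kidney, and its exons overlap those of Tmem259.

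Among metabotropic glutamate receptors 7 of 8 were fitted and all 7 were called higher in brain. Grm5, which couples to phospholipase C, was at 167 and 159 CPM in brain, 0 and 1.06 in heart, 0 and 0.227 in kidney and 0 in liver, a difference of 10.78 ± 0.96 (limma adjusted p = 1.99e-05). Grm8, a presynaptic receptor, had the smallest, 6.01 ± 0.81 (limma adjusted p = 0.00021). Grm2, Grm3 and Grm4 were at 8.17 to 51.4 CPM in brain, with 5 reads or fewer in each other library. Grm6, the receptor of retinal bipolar cells, had 3 reads in FFPE brain, 3 in FFPE kidney and 0 elsewhere.

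GABA-A receptors usually hold alpha and beta subunits with a gamma or delta subunit. Of 19 genes 14 were fitted and 12 were called higher in brain. Gabrb2 had the largest difference, 11.10 ± 0.92 (limma adjusted p = 1.35e-05), with 169 and 192 CPM in brain, 0 and 1.14 in heart, 0 and 0.0906 in kidney and 0 in liver. The 2 fitted genes that were not called were Gabra6 (3.57 ± 1.86, limma adjusted p = 0.123) and Gabre (1.64 ± 1.04, adjusted p = 0.195), both unlike between the brain libraries. Gabre was at 6.70 and 0.503 CPM in brain, 0.780 and 2.43 in heart, 0.293 and 1.68 in kidney and 0.096 and 0.276 in liver. Without frozen brain its difference stood at -1.04, and without FFPE brain at 4.32 (limma adjusted p = 0.00156). Of the 5 genes below the filter, Gabrq was high in frozen brain only, and Gabrp and the retinal rho subunits Gabrr1 and Gabrr3 had 9 reads or fewer in every library. Gabrr2 was highest in FFPE heart, at 21 reads (1.59 CPM), with the same 21 reads (0.833 CPM) in frozen brain.

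Most GABA-A genes lie in clusters, and members of a cluster did not share 1 pattern. On chromosome 11 Gabrb2 differed between the brain libraries by 0.18 (log2, FFPE minus frozen), while Gabra6, in the same cluster, went from 0 to 742 reads. On chromosome X (GRCm38, chrX:72255999-72842602) the outer genes Gabre and Gabrq were at -3.66 and -3.85, while Gabra3 between them was at -0.43. On chromosome 5 (chr5:70751047-72149037) Gabrg1 and Gabrb1 were at -1.74 and -0.88, and Gabra2 and Gabra4 at 0.12 and 0.36.

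Few nicotinic receptor genes passed the filter. Of 16 genes 5 were fitted and 3 were called higher in brain, namely Chrna4, Chrna7 and Chrnb2, beside 34.7% of all genes fitted. With no filter Chrna1, Chrna3, Chrna5, Chrna10 and Chrnb3 were also called higher and 0 lower, beside 22.9% and 18.8% of all genes (limma). Chrnb2, which pairs with Chrna4 in the main brain receptor, was at 32.9 and 25.7 CPM in brain, 0 and 0.682 in heart, 1.58 and 2.27 in kidney and 0.768 and 1.52 in liver. Its difference was 5.30 ± 0.72 (limma adjusted p = 0.000234), the largest of the family, and its exons overlap Adar on the other strand, with the strand setting of the counting not given in the sources used here. Chrnb1, the beta subunit of the muscle receptor, had the smallest, -1.49 ± 0.67 (limma adjusted p = 0.0796), which quantile scaling took to -2.96 (adjusted p = 0.00393, limma). The other muscle subunits Chrna1, Chrnd, Chrne and Chrng had 0 to 5 reads in each of the 8 libraries, and Chrna9 and Chrna10, of hair cells, 0 to 4.

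Glycine receptors, the inhibitory receptors of brainstem and spinal cord, had 4 of 5 genes fitted and all 4 called higher in brain. Glrb, the beta subunit that anchors the receptor to gephyrin, was at 59.0 and 79.1 CPM in brain, 0.0975 and 0.379 in heart, 0.0585 and 0.136 in kidney and 0 in liver, a difference of 9.33 ± 0.56 (limma adjusted p = 3.08e-06). Glra3 was at 6.07 and 2.12 CPM in brain and had 0 reads in all 6 other libraries. Against a floor of 3 reads per library its brain level was at least 4.07 log2 units higher. Glra1 and Glra2 were at 3.49 to 14.5 CPM in brain with 2 reads or fewer elsewhere, and Glra4 had 6 and 3 reads in brain and 0 elsewhere.

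Lists of partner genes and of genes of the same transmitters were described in the same way. Of 36 glutamate receptor partners (auxiliary subunits, scaffolds and kinases) 35 were called higher in brain and 0 lower (limma), beside 34.7% and 31.6% of all genes fitted, led by Frrs1l at 10.31, Dlgap3 at 9.40 and Cacng2 at 9.23. Homer3, a scaffold, was the one not called (0.88, limma adjusted p = 0.126). Of 21 GABA and glycine partners 20 were fitted, 17 were called higher and 1 lower, with Gad2, which makes GABA, at 10.27 and Slc6a11, which takes it up, at 10.22. The lower one was Gabarap, an autophagy and trafficking protein, at -1.35 (limma adjusted p = 3.46e-05). A cholinergic list of 20 genes held chaperones and modulators of nicotinic receptors, junction proteins, acetylcholine synthesis and breakdown, and the 5 muscarinic receptors, which are G protein-coupled. Of these 20 genes 18 were fitted, 15 were called higher and 1 lower, with Chrm1, Chrm2, Chrm3 and Chrm4 among the 15. Chrm2 was nevertheless highest in heart, at 29.2 and 42.5 CPM beside 9.44 and 5.75 in brain, with 0 to 4 reads in kidney and liver. Ly6h, a modulator (1082 and 288 reads in frozen and FFPE brain, at most 1 elsewhere) led, followed by the muscarinic Chrm1 at 7.73 and the choline transporter Slc5a7 at 7.62, and the lower one was Rapsn, which clusters the muscle receptor, at -1.58 (limma adjusted p = 0.0302). Of 10 glutamate release and uptake genes 9 were called higher, led by Slc17a6 at 10.36, Slc1a3 at 7.87 and Slc1a6 at 6.83, and 0 lower. A call against the mean of the other organs does not make brain the highest organ. Slc17a8, called higher, was at 2.93 and 2.35 CPM in brain and 27.8 and 15.2 in liver. Homer2, also called, was at 26.8 and 48.2 CPM in brain and 59.9 and 63.0 in heart.

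The frozen and the FFPE brain library, 1 each, allowed no test of their difference. Among the 51 members with at least 20 reads over both, 35 were within 2-fold, beside 88.1% of all genes with as many reads. The median log2 difference (FFPE minus frozen) was 0.10 for members and -0.05 for all genes, with an SD of 2.08 and 0.82, and of 1.41 for members without Gabra6. Past 4-fold, 4 members were higher in FFPE brain, beside 1.52% of all genes, and 3 were lower, beside 0.912%. The members with the largest brain difference in 6 families were close in the 2 libraries, with Gria2 at 0.41, Grin1 at 0.05, Grm5 at -0.07, Gabrb2 at 0.18, Grik2 at 0.00 and Glrb at 0.42.

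**Figure D2:**
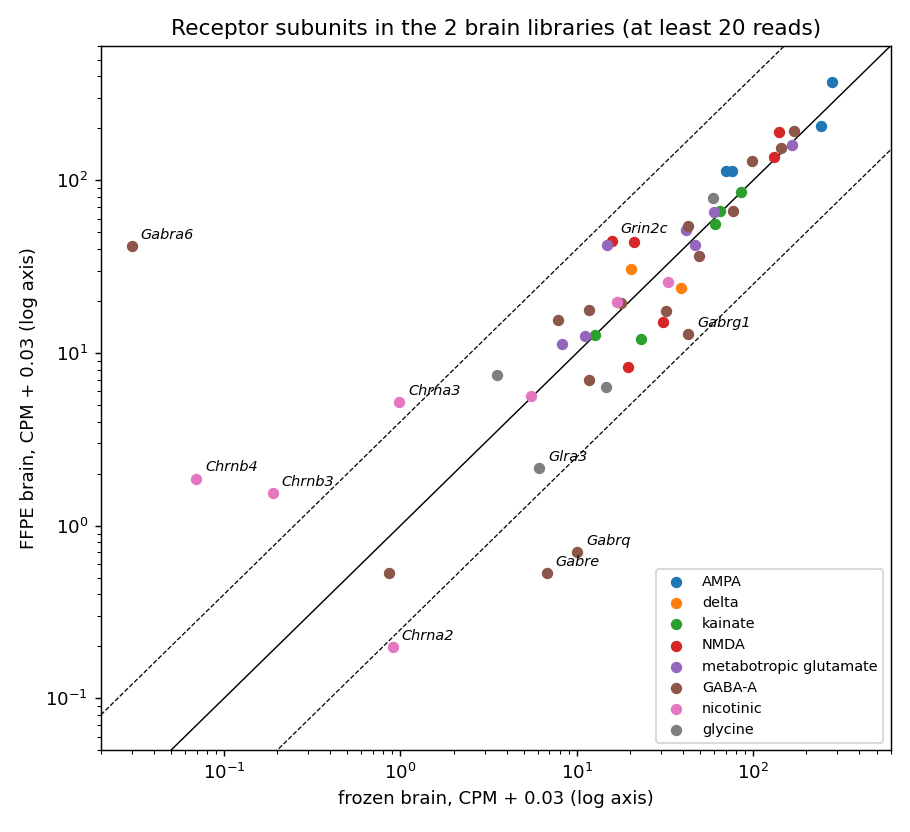
CPM of the 51 receptor subunit genes with at least 20 reads in FFPE brain (vertical) against frozen brain (horizontal), on log axes with 0.03 added, coloured by family. The solid line marks equal levels and the dashed lines 4-fold, and Gabra6, Chrnb4, Chrnb3 and Chrna3 lie above the upper line while Gabrq, Gabre and Chrna2 lie below the lower one.

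Gabra6 had 0 reads in frozen brain and 742 (41.4 CPM) in FFPE brain. The ratio to the floor of 3 reads was 348, and the lower 95% counting bound of the ratio was 283. It also had 16 reads (1.21 CPM) in FFPE heart and 1 in FFPE kidney, and 0 in frozen heart, frozen kidney and liver. Among alpha subunit reads it held 0 of 6671 in frozen brain, which allows a share of up to 0.0450%, and 12.8% (95% Wilson interval 11.98 to 13.70) in FFPE brain. Per kb its share of the alpha subunits was 25.8% there, and Gabra3 went from 27.6% to 14.5%. The other subunits used by granule cells were also higher in FFPE brain. Grin2c went from 15.7 to 44.7 CPM (ratio 2.85, 95% counting interval 2.52 to 3.22), Grm4 from 14.9 to 42.0 CPM (2.82, 2.49 to 3.20) and Gabrd from 7.81 to 15.5 CPM (1.98, 1.64 to 2.39). In heart, kidney and liver Grin2c had 0 to 22 reads, Grm4 0 to 5 and Gabrd 0 to 7, each with its highest count in FFPE heart.

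The other members past 4-fold higher in FFPE brain were 3 nicotinic subunit genes, all with few reads. Chrnb4 went from 1 to 33 reads (ratio 46.5, 95% counting interval 7.78 to 1890), Chrnb3 from 4 to 27 (9.51, 3.31 to 37.4) and Chrna3 from 24 to 92 (5.40, 3.41 to 8.85). Outside the brain their highest counts were in FFPE kidney, with 8, 2 and 10 reads, beside at most 1 in any other library. Chrna5 and Chrna6, below 20 reads over both, went from 2 to 12 and from 2 to 6 reads.

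The members lower in FFPE brain were led by the GABA-A subunits theta and epsilon. Gabrq went from 253 reads (10.0 CPM) to 12 (0.670 CPM), 15.0-fold (95% counting interval 8.42 to 29.4), and Gabre from 169 to 9 reads, 13.3-fold (6.86 to 29.7). Outside the brain Gabrq had 2 reads or fewer in each library. Chrna2, the alpha subunit of some interneurons, had 22 reads in frozen and 3 in FFPE brain (5.21-fold, 1.56 to 27.2). Gabrg1 went from 42.9 to 12.8 CPM (3.35-fold, 2.90 to 3.88) and Glra3 from 6.07 to 2.12 CPM (2.86-fold, 1.99 to 4.19). Glra2, Grin2d and Grin3a were 2.30-, 2.34- and 2.05-fold lower, and Glra1 and Grin2a were 2.13- and 2.09-fold higher.

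The make-up of receptor groups also differed between the 2 brain libraries. Among GluN2 subunits, Grin2d held 9.84% of reads in frozen brain (95% Wilson interval 9.04 to 10.7) and 2.88% in FFPE brain (2.45 to 3.37), and Grin2c 7.99% (7.26 to 8.77) and 15.6% (14.6 to 16.6). Grin2b led by reads in both, with 71.4% and 66.2%. Per kb Grin2b led in frozen brain, at 44.0% beside 24.2% for Grin2c, and Grin2c in FFPE brain, at 43.9% beside 37.9% for Grin2b. Gabrg1 held 32.7% (31.2 to 34.4) of gamma subunit reads in frozen and 14.9% (13.2 to 16.8) in FFPE brain.

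**Figure D3:**
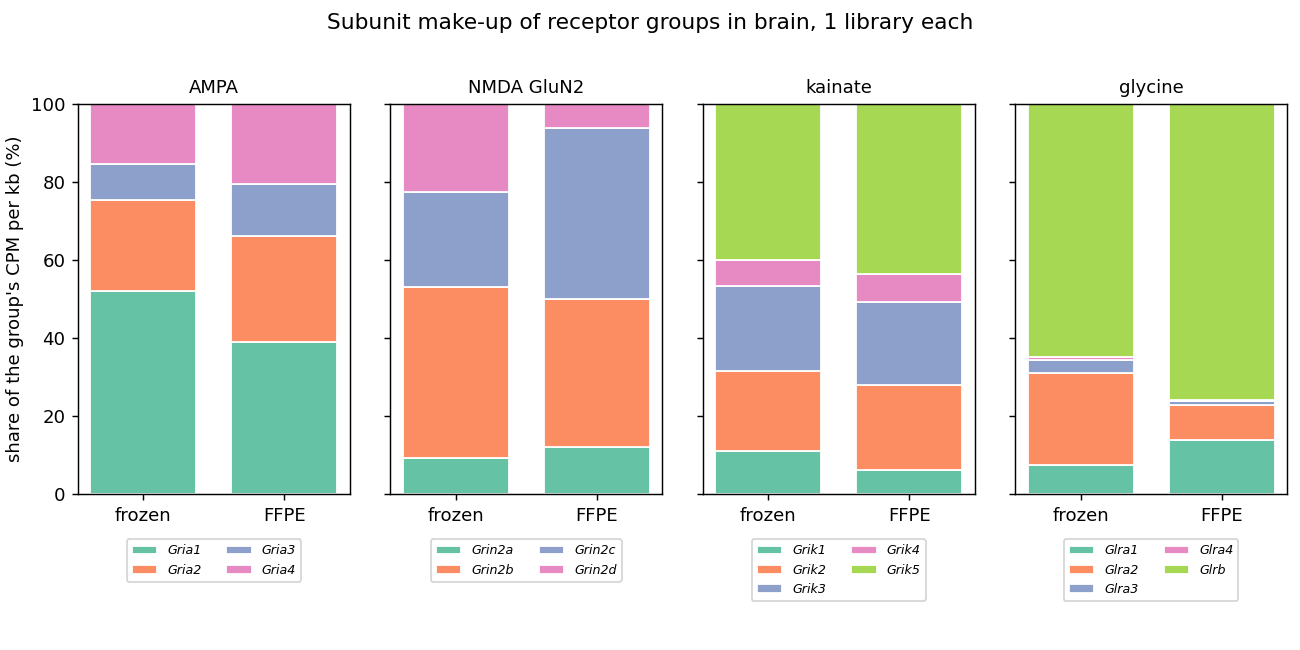
Share of each subunit in the summed CPM per kb of exon of its group, in percent, in frozen and FFPE brain, with 1 stacked bar per library. Gria1 takes 52.1% of the AMPA bar in frozen and 39.0% in FFPE brain, and Grin2d 22.6% and 6.13% of the GluN2 bar.

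Markers of brain regions differed between the same 2 libraries. Of 14 cerebellar granule and Purkinje cell markers 7 were past 4-fold higher in FFPE brain and 0 lower, and their summed level was 375 and 1070 CPM in frozen and FFPE brain. The granule cell markers Fat2 and Cbln3 went from 1 to 2341 and from 4 to 1069 reads, and the Purkinje marker Pcp2 from 0 to 98. Of 15 forebrain markers 5 were past 4-fold higher, including the cortical Neurod2 (1 to 367 reads) and Neurod6 (10 to 335), while the striatal Drd1 and Ppp1r1b were at -0.28 and -0.34 (log2). Of 10 brainstem markers 6 had 20 reads or more and all 6 were past 4-fold higher, among them Slc6a5, the glycine transporter of glycinergic neurons (0 to 156 reads). The summed brainstem level was 0.357 and 20.2 CPM, with 8 of 10 at 0 reads in frozen and 0 of 10 in FFPE brain. In frozen and FFPE kidney the same list summed to 24.1 and 46.6 CPM, and the cerebellar list to 481 and 576 CPM. Neither list marks brain alone. Pan-neuronal markers had a median difference of 0.17 and 0 past 4-fold, with Gap43 at -1.35. GABA and glycine partners had a median of -0.46, with Gad2 going from 6485 to 1819 reads (-1.34), the vesicular GABA transporter Slc32a1 from 2038 to 596 (-1.28) and Slc6a11 from 5434 to 1387 (-1.48). Glutamate release and uptake genes (10) had a median of 0.13, with 1 past 4-fold higher, Slc17a7 (128 to 2798 reads), and 0 lower. Astrocyte markers (6 genes) had a median of -0.41. The part these markers have in the subunit differences was not tested, and with 1 library each, preservation and the piece of brain taken cannot be told apart.

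Over all 4 organs no member was called between FFPE and frozen tissue with limma, 0 of 47 higher beside 1.2% of all genes and 0 lower beside 2.18%. At an unadjusted p under 0.05 there were 7, and the smallest adjusted p was 0.122, for Grin2c (1.77 ± 0.56). The voom form of limma on the recovered reads called Gabra6, Grin2c and Grm4 higher and Gabrg1 lower. The share of all genes called by voom is not given here, so these calls have no background beside them. Gabra6 and Grm4 each had 0 reads in both liver libraries and 0 and 1 in kidney.

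Of the 47 fitted members 11 were called higher in heart than the mean of kidney and liver, beside 24.3% of all genes, and 6 lower, beside 26.4%. The muscle subunit Chrnb1 was the only one of the 11 with its highest library in heart. It was at 3.51 and 4.78 CPM in heart, 0.238 and 0.503 in brain, 0.936 and 2.40 in kidney and 0 and 0.620 in liver (2.99 ± 0.71, limma adjusted p = 0.00772), and without frozen heart the call was lost (adjusted p = 0.121, limma). Its partner subunits stayed at 0 or 1 read in heart. A further 8 were brain-type genes with few reads in frozen heart, namely Glrb, Gria1, Gria2, Grik1, Grik2, Grin1, Grin2d and Grm4, each with 0.0975 to 0.877 CPM there. In FFPE heart they had 0.152 to 2.12 CPM, as Grin1 with 1 read in frozen and 27 in FFPE heart. Gria1 (3.20 ± 0.86) was at 0.487 and 2.12 CPM in heart, 0 and 0.408 in kidney and 0.096 and 0.0689 in liver. Among the 6 called lower in heart were Chrna4, Grid1, Chrnb2, Chrna7 and Grik5. Fewer members were called higher without FFPE heart, and more without frozen heart. The share of all genes called in such fits is not given here.

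Low counts of many brain subunits were more frequent in the FFPE than in the frozen libraries. Members with at least 3 reads numbered 15 in frozen and 33 in FFPE heart, 22 and 36 in kidney, 8 and 16 in liver and 53 and 60 in brain. More genes of the whole table were also read in FFPE libraries. Those with any read, a lower threshold, numbered 16098 in frozen and 18140 in FFPE heart and 17129 and 20349 in kidney. In liver they numbered 15493 and 16725, and in brain 18722 and 21002. Over the 43 members with at least 100 reads in FFPE brain, the median level in FFPE heart was 1.03% of that in FFPE brain, beside 0.0716% in frozen heart, 0.361% in FFPE kidney and 0% in frozen kidney and both liver libraries. Other neuronal genes moved the same way in heart, with Snap25 at 15 and 44 reads, Syt1 at 1 and 31, Fat2 at 4 and 16 and Slc17a7 at 28 and 215 in frozen and FFPE heart. Summed over the 10 pan-neuronal markers, heart was at 11.3 and 19.4 CPM, with none at 0 reads. Their part in the heart calls was not tested.

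In kidney, Chrna4 (GRCm38, chr2:181018380-181043546, minus strand) was above its brain level. This alpha subunit of the main brain nicotinic receptor was at 27.9 and 23.5 CPM in frozen and FFPE kidney, 17.0 and 19.7 in brain, 4.42 and 9.37 in liver and 0.195 and 0 in heart. Both kidney libraries were above all 6 others, both heart libraries were at 2 reads or fewer, and kidney differed from the mean of heart and liver by 5.02 ± 0.65 (limma adjusted p = 0.000452). Heart was lower than the mean of kidney and liver by -7.07 ± 0.65 (limma adjusted p = 3.87e-05). Both calls held in all 15 alternative fits. The usual beta partner Chrnb2 was at 1.58 and 2.27 CPM in kidney, and pan-neuronal markers summed to 6.50 and 15.3 CPM there, with 4 and 0 of 10 at 0 reads. Adrenal markers (7 genes) summed to 0.293 and 4.76 CPM, with 6 and 2 at 0 reads.

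Kidney held 10 members called higher than the mean of heart and liver, beside 20.6% of all genes, and 3 called lower, beside 16.3%. Gabra3, an alpha subunit of GABA-A receptors, was at 5.33 and 4.08 CPM in kidney, 49.2 and 36.6 in brain, 1.36 and 2.43 in heart and 0.480 and 2.82 in liver (1.63 ± 0.55, limma adjusted p = 0.0486). This call was lost with quantile scaling, median centring, no mean-variance trend and log2(CPM + 5), and without any 1 library other than FFPE liver. The gamma subunit genes Gabrg1 and Gabrg3 had 0 to 5 reads in each kidney library. Gria4 was at 2.93 and 2.85 CPM in kidney, 0.390 and 0.834 in heart and 0.096 and 0.138 in liver (3.22 ± 0.38). Grm7, a presynaptic receptor, was at 2.11 and 3.17 CPM in kidney, 0.682 and 0.986 in heart and 0 and 0.138 in liver (3.22 ± 0.48). Chrna7, which forms receptors without a partner, was at 1.35 and 0.952 CPM in kidney, 5.47 and 5.58 in brain, 0.0975 and 0.0758 in heart and 0.192 and 0.0689 in liver (3.02 ± 0.54). For these 3 and for Gria3 (2.97 ± 0.50) both kidney libraries were above heart and liver. Gabra4, Gabrb1 and Grid1 were also among the 10, though each lost the call on log2(CPM + 5) and without either kidney library, and Grm8 and Chrna2 among the 3 called lower. Fewer members were called higher without either kidney library, and the share of all genes called in such fits is not given here.

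**Figure D4:**
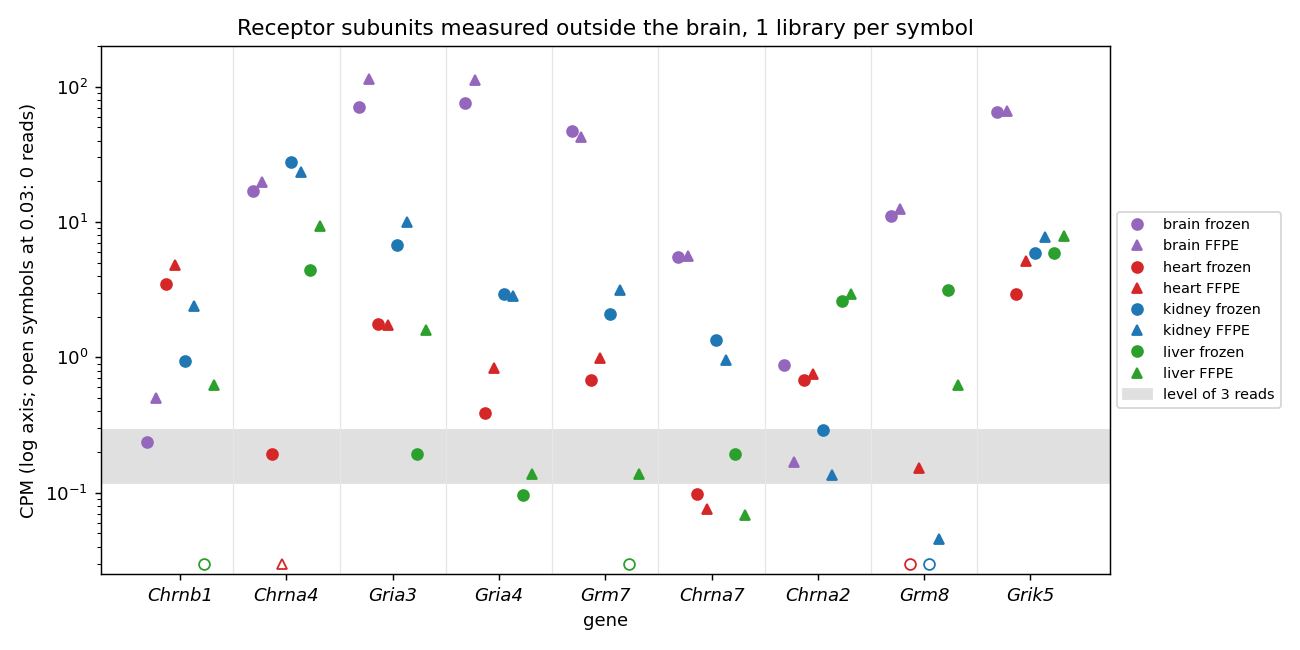
CPM of 9 receptor subunit genes in each of the 8 libraries, on a log axis, with circles for frozen and triangles for FFPE tissue, colours for organs and the grey band for the level of 3 reads. The blue symbols of Chrna4 lie above the purple ones, and Grik5 is above the band in all 8 libraries.

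Liver had 3 members called higher than the mean of heart and kidney, beside 24.4% of all genes, and 14 lower, beside 28.8%. Chrna2 was highest there, with 2.59 and 2.96 CPM (27 and 43 reads), beside 0.872 and 0.168 in brain, 0.682 and 0.758 in heart and 0.293 and 0.136 in kidney (2.76 ± 0.64, limma adjusted p = 0.00649). Both liver libraries were above all others. Grm8 was at 3.17 and 0.620 CPM in liver (33 and 9 reads), 11.1 and 12.6 in brain, 0 and 0.152 in heart and 0 and 0.0453 in kidney (4.47 ± 0.85, limma adjusted p = 0.00245). The 2 liver libraries differed more for Grm8 than for Chrna2. Chrna4 was the third (2.05 ± 0.65, limma adjusted p = 0.0269), between its kidney and heart levels, and its direction depended on the scale, with -0.10 on log2(CPM + 5). The 14 lower ones were led by Grm7 (-4.05 ± 0.48), Chrnb1 (-3.83 ± 0.71) and Gria2 (-3.46 ± 0.57), and 11 of the 14 had at most 4 reads in either liver library. Of the others, Chrnb1 had 0 and 9 reads and Gria3 2 and 23. Grin3a, among the 11, was at 30.9 and 15.0 CPM in brain, 0.0975 and 0.834 in heart, 0.293 and 0.680 in kidney and 0 in liver (-3.34 ± 0.78). Without FFPE liver fewer members were called in either direction, and the share of all genes called in such fits is not given here.

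A gene with 0 reads outside the brain still gets a difference in these contrasts, since 0.5 reads stand for other levels in libraries of other size. Glra3, with 0 reads in all 6 libraries, was at 0.41, -0.70 and 0.29 in the heart, kidney and liver contrasts. Among called members the smallest difference in size was 0.79, for Grik5 in heart, a gene with 30 or more reads in every library. This does not bound the effect for genes with few reads. Grik1, called in heart at 2.36, had 1 and 2 reads there and 0 in kidney and liver, and it was not called on log2(CPM + 5).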

How the data were processed

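Total RNA sequencing of 8 mouse libraries was analysed from 1 table. Per the submitters' processing notes, HISAT2, featureCounts and limma were used with genome build mm10, without versions, strand setting or annotation. The authors deposited log2 CPM values, which the values themselves show to hold 0.5 added reads and a scaling factor of 0.500 to 1.76 per library, by a method not given in the sources used here. Whole reads were recovered for 100% of values (within 1e-06).

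Genes above 1 CPM in at least 2 libraries (15819) entered 1 linear model (limma 3.58.1, R 4.3.3) of organ and preservation, with the variance following the mean (3 residual degrees of freedom, prior 5.35). Organ differences rest on 2 libraries each. A call needed an adjusted p (Benjamini-Hochberg, over all genes fitted) below 0.05. Brain FFPE and frozen were compared without a test, with exact 95% counting intervals for ratios and Wilson intervals for shares. Levels per kb used exons of GENCODE M21, in which all 66 members were found. The fit was tested on simulated data. Alternatives were other filters, scalings, pseudocounts and variance models, and leaving out each library.

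Members, lists, tests and the rule for named genes were chosen with earlier results of these data known. Named were, by that rule, the largest and smallest brain difference per family, up to 5 rises and 5 falls between the brain libraries, members highest outside the brain with 10 reads, up to 6 called per organ and direction, muscle nicotinic and granule cell subunits, and 3 members per partner list. A few genes that the rule names are not reported here. Other members and markers were named after their values were seen.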

Additional observations from a re-analysis of the deposited data

How the results depend on the processing

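Of the alternative values for single genes, 616 kept direction and side of the threshold, 42 lost the call, 5 gained it and 2 reversed. The reversed ones were Chrna4 in liver, -0.10 on log2(CPM + 5), and Gabre in brain, -1.04 without frozen and 4.32 without FFPE brain. Leaving out 1 library gave 21 to 44 members called higher in brain and 0 to 1 lower, 3 to 15 higher and 2 to 7 lower in heart, 6 to 11 and 1 to 4 in kidney, 1 to 5 and 8 to 19 in liver, and 0 between FFPE and frozen tissue (limma). The low brain counts came without frozen or FFPE brain, where 25 and 24 members passed the filter. A lone library of an organ was assumed to vary like the others. The share of all genes called is not given for the fits that leave out 1 library.

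Members called lower in brain numbered 2 with quantile scaling (Chrna2 and Chrnb1), 1 with median centring and 1 on log2(CPM + 5). On that scale, which damps low levels, 2 were called higher and 3 lower in heart, 6 higher in kidney and 5 lower in liver. Quantile scaling called 9 lower in kidney, and moved the median of all genes by -0.29 in brain and -0.14 in kidney. With voom 3 were called higher and 1 lower in FFPE tissue, without the share of all genes for that fit. Past 4-fold in FFPE brain there were 13 higher with no minimum of reads, 2 with at least 100 reads and 1 on log2(CPM + 5), where 0 were lower. The share of all genes under these altered rules is not given here. With no minimum, very few reads pass the fold, as for Chrnd, Chrne and Chrng with 0 in frozen and 2 in FFPE brain and Gabrr1 with 0 and 1.

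Shares within a family depended on length. Without division by length the FFPE and frozen shares were 25.6% and 36.4% for Gria1, 31.0% and 36.6% for Grin1, 43.7% and 65.7% for Grid1, 83.1% and 70.8% for Glrb and 28.5% and 26.2% for Grik5. Gabrb2, Grm3 and Chrna4 stood at 25.1%, 13.4% and 31.7% in FFPE brain, and Grm5 and Chrnb2 at 47.8% and 56.5% in frozen brain. With the longest coding transcript, an alternative chosen after seeing the data, they were 32.1% and 44.7% for Gria1, 26.3% and 26.4% for Gabrb2, 57.2% and 62.8% for Grin1, 44.3% and 66.3% for Grid1, 82.5% and 73.2% for Glrb and 45.9% and 41.4% for Grik5, with Grm3 at 23.8% and Chrna4 at 30.8% in FFPE and Grm5 at 33.5% in frozen brain. The cause of these shifts, beyond the divisor itself, was not tested.

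The organ term of the model compared FFPE with frozen tissue within each organ. No paired analysis was possible by replicate number because the labels give none and each group is 1 library. Organ against preservation could not be tested with 1 library per cell of the design, and a gene with 0 reads is limited to under 0.119 to 0.292 CPM.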
